A study of Drosophila melanogaster with 8 samples.

Results

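The Antennapedia complex and the bithorax complex are the 2 Hox gene complexes of Drosophila melanogaster, both on chromosome arm 3R. Their chromatin was taken as all genomic probes of the tiling arrays whose midpoint lay between 2480000 and 2830000 on 3R (Antennapedia complex) or between 12480000 and 12810000 on 3R (bithorax complex), in the coordinates printed on the arrays. The rule took 2794 of the 475395 genomic probes, 1429 in the 350 kb of the Antennapedia complex and 1365 in the 330 kb of the bithorax complex. All of them were on 1 of the 2 array designs and had a value in all 4 samples. Each complex was set beside the 300 kb on either side of it (its flanks), where 2463 and 2491 probes had values in all samples.

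The study asked where H3K36me3 changes in embryos mutant for the demethylase dKDM4A. Chromatin from dkdm4a mutant embryos and from wild type embryos was immunoprecipitated with an H3K36me3 antibody (abcam ab9050), and the precipitate (IP, Cy5) was hybridised against input DNA (Cy3), in 2 biological replicates per genotype. The mutant was a Bloomington stock of genotype y1 w67c23 that carried the P-element insertion Kdm4A KG04636, a SUPor-P element with the markers y+mDint2 and wBR.E.BR. The wild type was a line from which that same element had been excised by crosses to flies with the PΔ2-3 transposase, although the strain entry of the labels is the same for both genotypes. Embryos were whole, staged at 2 to 4 h and collected in population cages, so each sample pooled many embryos and all their cell types. A change in part of the cells cannot be told apart from a smaller change in all of them.

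Hox genes encode homeodomain transcription factors that give the segments of the body their identity, and in the fly they are switched on in restricted domains of the early embryo. Polycomb group proteins keep them silent elsewhere, over broad domains marked by H3K27me3. H3K36me3 is laid down along the bodies of transcribed genes by the methyltransferase Set2 as RNA polymerase elongates, and is removed by demethylases of the KDM4 family, of which dKDM4A is one. In RefSeq's annotation of the Release 6 assembly the Antennapedia complex begins along 3R with lab and pb (identity of head segments). Next come zen2, zen and bcd (homeobox genes with roles in dorsal tissue and in the anterior axis) and then Ama. Dfd and Scr (identity of head and first thoracic segments) and ftz (a pair-rule gene) follow, and Antp (thorax) comes last. The complex holds 19 protein-coding genes between lab and Antp, among them a group of cuticle protein genes, Ccp84Aa to Ccp84Ag. The bithorax complex runs from Ubx (thorax and abdomen) through the noncoding RNA bxd, abd-A and the iab-4 and iab-8 RNAs to Abd-B (posterior abdomen), with 6 protein-coding genes in all. The array files name no genome build, so no gene was placed on a probe here and all positions are those of the array. That the intervals are the complexes rests on their coordinates, since a histone mark gives no marker of its own.

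The level of H3K36me3 is given throughout as log2 of IP over input, from the scanner software's processed signals, minus the array's median, so that 0 is the median genomic probe. In both complexes the mean level lay near or below 0, and in both it lay about 1 log2 unit under the mean of the flanks. The Antennapedia complex averaged -0.07 and 0.01 in the 2 mutant samples, against -0.10 and 0.01 in the 2 wild type samples. Its flanks averaged 0.86 and 1.08 in mutant samples and 0.83 and 1.06 in wild type samples. No sample of the complex overlapped a sample of its flanks.

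The bithorax complex was the lower of the pair by mean level. Its mean level was -0.21 and -0.12 in mutant samples, against -0.24 and -0.13 in wild type samples. Its flanks stood at 0.72 and 0.89 in mutant samples and 0.67 and 0.84 in wild type samples, again with no overlap. For comparison, all probes of the chromosome arms averaged 0.71 and 0.88 in mutant samples and 0.69 and 0.86 in wild type samples, so the flanks of both complexes were close to the arms as a whole and the complexes were not.

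**Figure D1:**
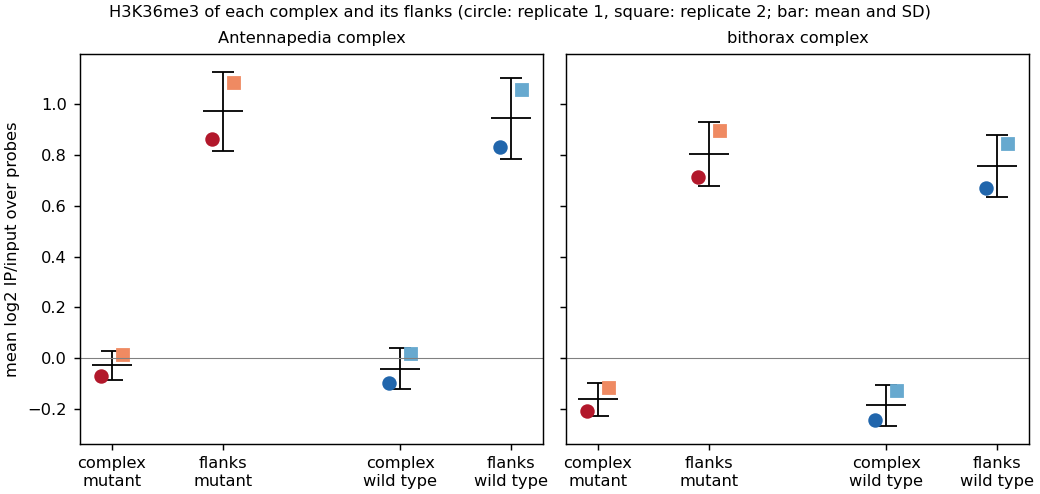
Mean log2 IP/input over the probes of each complex and of its flanks, with each sample as a point (circle, replicate 1; square, replicate 2) and the mean and SD of the 2 replicates as bars. In both genotypes the complexes sit between -0.24 and 0.01 and the flanks between 0.67 and 1.08.

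Complex minus flanks was -0.93 and -1.07 in the mutant samples and -0.93 and -1.04 in the wild type samples for the Antennapedia complex, a mean of -0.99 over the 4 samples. For the bithorax complex it was -0.92 and -1.01 in mutant samples and -0.92 and -0.97 in wild type samples, a mean of -0.96. The sign was the same in 4 of 4 samples in both complexes, and the two-sided exact sign-flip permutation test gave p = 0.125 for each, which is the smallest value that 4 samples allow. The size depended on how probes were summarised: with medians over probes in place of means the differences were -0.27 and -0.28, and with loess normalisation within arrays -0.36 and -0.27, all with the same sign. The flanks had medians near 0 (-0.04 to 0.02 around the Antennapedia complex and -0.06 to -0.02 around the bithorax complex), so their higher means rested on the enriched part of their probes, of which the complexes held less. Probes above 0 made up 33.6 to 37.6% of the Antennapedia complex and 32.9 to 34.5% of the bithorax complex, against 48.3 to 50.9% and 48.0 to 49.5% of their flanks.

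The difference lay mostly in the IP channel. Log2 IP of the Antennapedia complex minus its flanks was -1.11 and -1.29 in mutant samples and -1.08 and -1.24 in wild type samples, while log2 input differed by -0.18 and -0.22 in mutant samples and -0.15 and -0.20 in wild type samples. For the bithorax complex the IP differed by -1.29 and -1.44 in mutant samples and -1.26 and -1.36 in wild type samples. Its input differed by -0.37 and -0.43 in mutant samples and -0.35 and -0.38 in wild type samples. The input of the complexes was thus dimmer as well, which makes the log2 ratio less negative than the IP alone, and the part that probe composition has in it was not tested. IP probes well above background made up 82.2 to 92.2% of the Antennapedia complex and 80.2 to 89.5% of the bithorax complex, with the lower shares in replicate 2 of both genotypes, against 88.2 to 94.3% and 86.8 to 93.6% of the flanks.

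The complexes were next divided into 2 kb windows with at least 3 probes, which gave 174 windows in the Antennapedia complex and 162 in the bithorax complex, with a median of 8 probes each. Most of these windows were below the array median in every sample. This held for 119 windows (68.4%) of the Antennapedia complex and 105 windows (64.8%) of the bithorax complex, against 50.0% of the 592 flanking windows and 48.3% of the 55192 windows of the chromosome arms. The median window level was -0.34 in the Antennapedia complex and -0.31 in the bithorax complex, the reverse of their order by mean level. The gap was wider in the upper part of the distribution, where the upper quartile was -0.04 and -0.15 in the complexes, against 1.77 and 1.05 in their flanks and 1.22 over the arms.

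Enriched windows were few. A level of at least 1 in all 4 samples was reached by 10 windows (5.75%) of the Antennapedia complex and 3 windows (1.85%) of the bithorax complex, against 27.0% and 24.0% of the windows in their flanks and 24.6% of the windows of the arms. At a level of at least 3 in all 4 samples, 4 windows of the Antennapedia complex and 0 of the bithorax complex remained, against 20.3% and 16.6% in the flanks. Windows side by side share sonicated fragments and are not independent, so these counts describe the intervals and were not tested.

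Of the 10 enriched windows of the Antennapedia complex, 3 belonged to a run that crossed its lower boundary. That run covered 14 kb, from 2472001 to 2486000 on 3R, of which 3 of 7 windows lay inside the interval. The window from 2480001 to 2482000 had the highest level in either complex in the main processing, at 4.82 and 5.68 in mutant samples and 4.78 and 5.65 in wild type samples. The next ones, from 2482001 and from 2484001, stood at 4.12 to 5.14 in mutant samples and 4.09 to 5.13 in wild type samples. Enrichment ended there: the window from 2486001 was at 0.53 and 1.04 in mutant samples and 0.98 and 0.90 in wild type samples, and the one from 2488001 was below 0 in all 4. With each boundary moved inward by 10 kb, an alternative chosen after seeing the data, the Antennapedia complex lay -1.08 from its flanks and the bithorax complex -0.98.

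The other 7 windows at 1 or more in all samples lay in 5 short stretches of 2 to 4 kb. The highest of these in the main processing was the window from 2634001 to 2636000 on 3R, with 4.21 and 4.81 in mutant samples and 4.38 and 5.04 in wild type samples. Its level exceeded that of 91.1% of the windows of the arms. Its neighbour from 2632001 was at 2.03 and 2.58 in mutant samples and 1.89 and 2.38 in wild type samples, and the window beyond, from 2636001, was already at 0.68 and 0.86 in mutant samples and 1.01 and 1.03 in wild type samples. Below the pair, the window from 2630001 was at -0.39 and -0.35 in mutant samples and -0.36 and -0.60 in wild type samples. The next window thus lay below 0 on that side of the pair and above 0 on the other. The order of the highest windows depended on the normalisation: with loess that from 2720001 was at 2.80, that from 2634001 at 2.43 and that from 2480001 at 2.34 over the 4 samples, and with normexp they were at 1.99, 3.01 and 3.63.

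The second stretch began at 2720001, where the level was 2.94 and 3.61 in mutant samples and 3.20 and 3.76 in wild type samples, and went on into the window from 2722001 with 1.11 and 1.81 in mutant samples and 1.49 and 1.87 in wild type samples. The third, from 2590001 to 2592000, had 2.76 and 3.11 in mutant samples and 2.97 and 3.34 in wild type samples. The remaining pair of single windows, from 2578001 and from 2734001, had levels of 2.06 and 1.54 over the 4 samples. In each of these windows replicate 2 was higher than replicate 1 within a genotype, by more than the genotypes differed in the windows from 2590001 and 2720001.

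**Figure D2:**
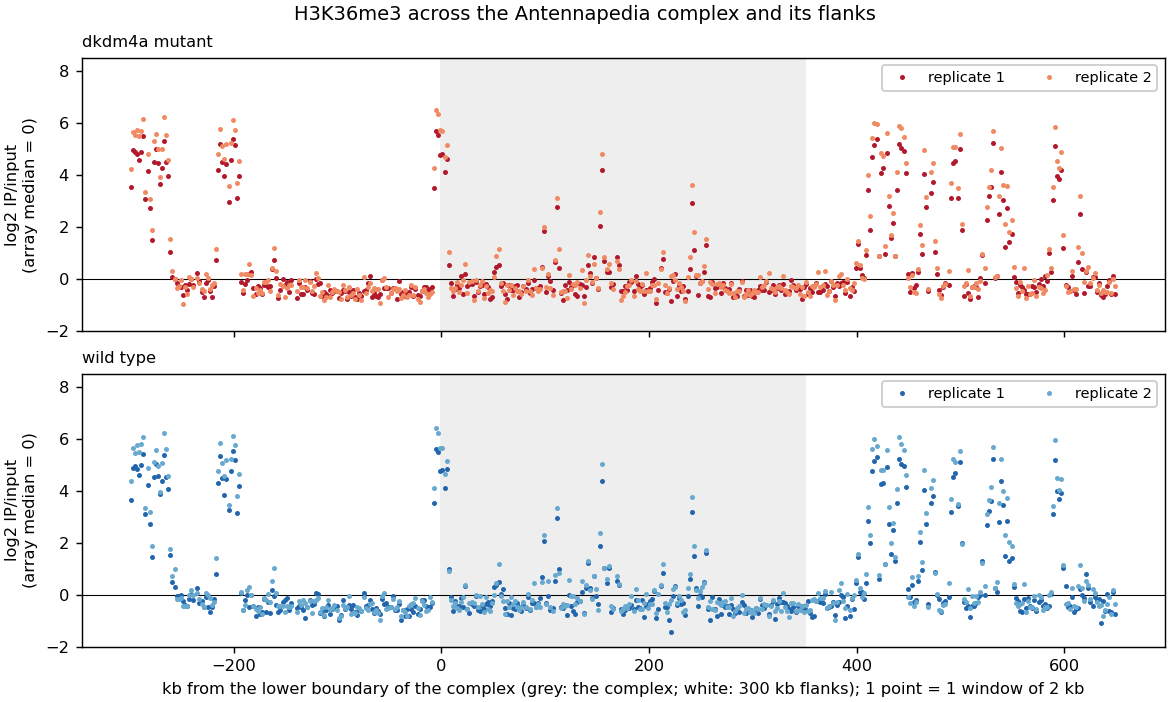
Log2 IP/input of each 2 kb window across the Antennapedia complex (grey) and the 300 kb on each side, with dkdm4a mutant samples above and wild type samples below, against the distance in kb from the lower boundary of the complex. The complex holds a run of high windows at its lower boundary, 5 short enriched stretches and long stretches below 0, where the flanks hold 14 further enriched stretches of up to 40 kb.

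The bithorax complex held 3 enriched windows, each 2 kb wide and none at its boundaries. The window from 12634001 to 12636000 on 3R had 2.81 and 3.11 in mutant samples and 2.77 and 3.20 in wild type samples. The window from 12754001 to 12756000 had 2.63 and 3.11 in mutant samples and 2.44 and 3.04 in wild type samples, and was flanked by windows from 12752001, 12756001 and 12758001 that lay between 0.81 and 1.29 in all samples. The window from 12804001, near the upper boundary, had 1.44 and 1.74 in mutant samples and 1.04 and 1.60 in wild type samples. In the fifth place by level stood the window from 12676001, with 0.78 and 0.76 in mutant samples and 1.36 and 1.49 in wild type samples, after that from 12756001, with 0.95 and 1.12 in mutant samples and 1.08 and 1.26 in wild type samples.

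The lower boundary of the bithorax complex was a sharp step. A run of 24 kb outside it, from 12456001 to 12480000, stood at a mean of 3.90 in mutant samples and 3.93 in wild type samples. The last window outside was at 3.53 and 4.03 in mutant samples and 3.61 and 4.16 in wild type samples. The first window inside was at 0.49 and 0.65 in mutant samples and 0.69 and 0.58 in wild type samples, and the window from 12488001 was the lowest of the first 5, below 0 in all 4 samples. The step lay between the same pair of windows in both genotypes.

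**Figure D3:**
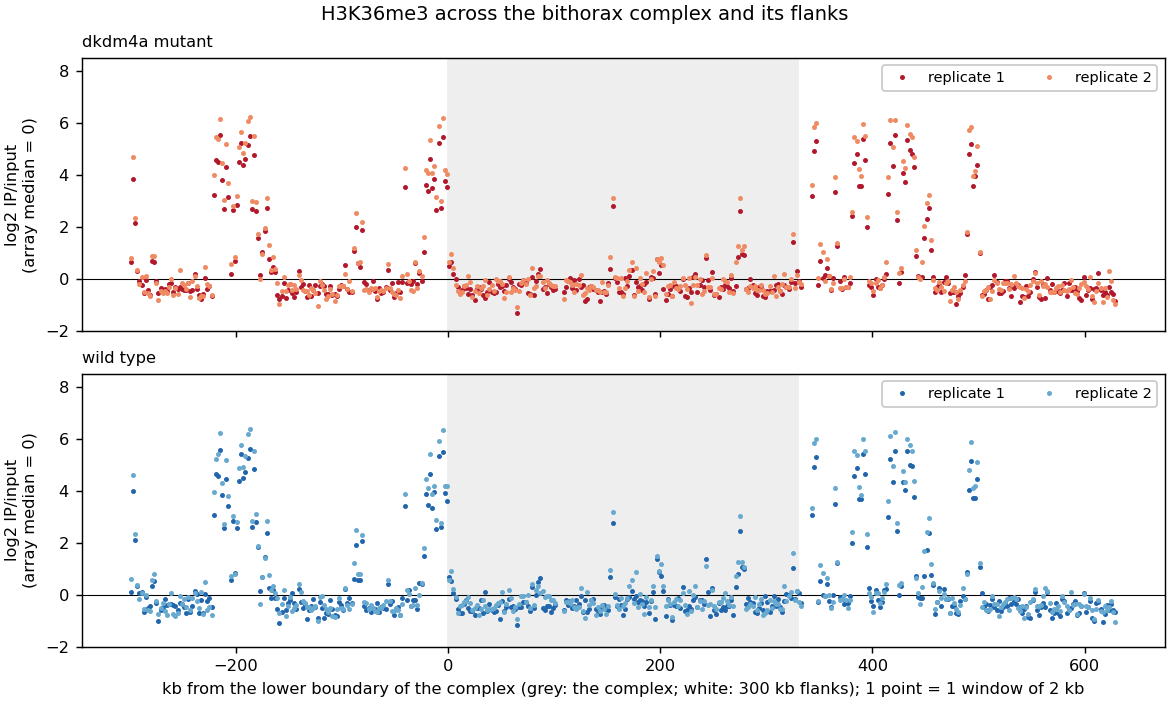
Log2 IP/input of each 2 kb window across the bithorax complex (grey) and the 300 kb on each side, with dkdm4a mutant samples above and wild type samples below, against the distance in kb from the lower boundary of the complex. The 24 kb run of high windows ends at the lower boundary in both genotypes, and 3 single windows reach 1 in all 4 samples inside.

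Between the enriched windows lay long stretches below the array median. The longest in the Antennapedia complex ran over 50 kb, from 2736001 to 2786000 on 3R, with 25 windows in a row below 0 in all 4 samples and a mean of -0.43 in mutant samples and -0.52 in wild type samples. A further 32 kb stretch, from 2810001 to 2842000, ran across the upper boundary into the flank, so that boundary was not marked by a change in level. In the bithorax complex the longest were 2 stretches of 20 kb, from 12612001 and from 12766001, with means of -0.40 and -0.43 in mutant samples and -0.49 and -0.45 in wild type samples. Windows without enough probes ended a stretch. A gap of 6338 bp without probes, from 12582036 to 12588373, thus parted the stretches from 12570001 to 12582000 and from 12588001 to 12594000, both below 0 in all 4 samples. The flanks held stretches of this kind too, of up to 46 kb and 40 kb.

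Along the Antennapedia complex, in steps of 50 kb from its lower boundary, the mean level in mutant samples was 0.29 and 0.41 in the first step, where the boundary run lies, and in wild type samples 0.28 and 0.39. It was lowest in the last 2 steps, from 2730001 on. The last step stood at -0.39 and -0.32 in mutant samples and -0.46 and -0.47 in wild type samples, and held 22 of 25 windows below 0 in all samples. In the bithorax complex the third step, from 12580001, was the lowest, with -0.38 and -0.32 in mutant samples and -0.42 and -0.42 in wild type samples. That step holds the gap without probes and had 22 windows, against 25 in the other full steps. The fourth step, with the window from 12634001, was the highest, with -0.02 and 0.11 in mutant samples and -0.04 and 0.13 in wild type samples.

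The 3 windows with the lowest level in the Antennapedia complex began at 2686001 (-0.83 over the 4 samples), 2616001 (-0.76) and 2714001 (-0.74). In the bithorax complex they began at 12544001 (-1.11), 12690001 (-0.78) and 12622001 (-0.67). The window from 12544001 was at -1.31 and -1.07 in mutant samples and -1.15 and -0.92 in wild type samples, the lowest in either complex.

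Replicates ranked the windows of the complexes less closely than those of the flanks. Pearson's r between replicates across windows, given as a description over windows that share arrays, was 0.967 in mutant and 0.967 in wild type samples over the 174 windows of the Antennapedia complex. It was 0.887 in mutant and 0.882 in wild type samples over the 162 windows of the bithorax complex. In the flanks, whose levels spanned a wider range, it was between 0.993 and 0.994. Spearman's rho, which weighs the few enriched windows less, was 0.710 and 0.709 in the Antennapedia complex and 0.617 and 0.614 in the bithorax complex, the mutant value first in each pair.

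The mean level of the complexes differed little between genotypes. The mutant minus wild type change (mt/WT) of the Antennapedia complex was 0.03 within replicate 1 and -0.00 within replicate 2, a mean of 0.01. With -0.03 ± 0.06 in mutant and -0.04 ± 0.08 in wild type samples (SD, n = 2 each), the genotypes differed by less than their replicates. The two-sided exact permutation test gave p = 1, in a design of 2 against 2 that allows no value under 0.333. For the bithorax complex the change was 0.04 and 0.01 within the replicates, a mean of 0.02, with -0.16 ± 0.06 in mutant and -0.19 ± 0.08 in wild type samples (SD, n = 2 each; exact permutation p = 0.667).

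Relative to the flanks, the mt/WT change of the Antennapedia complex was -0.00 and -0.03 within the replicates (mean -0.02, exact permutation p = 0.667). For the bithorax complex it was -0.01 and -0.04 (mean -0.02, exact permutation p = 0.667). The exact test with genotype exchanged only within replicates gave p = 0.5 for both, its smallest value. Under normexp background correction the same changes were larger, -0.21 and -0.23, with an exact permutation p of 0.333 each. These p-values miss the threshold by design and do not show that the genotypes were alike.

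Across single windows the fit was made on all 57266 windows of the genome with limma, and p-values were adjusted over all of them (Benjamini-Hochberg, threshold 0.05). In the fit without a replicate block 0.353% of all windows passed as higher and 0.173% as lower in the mutant. In the complexes 1 of 336 windows passed as higher and 0 as lower. The SE of a change in this fit was larger at high levels. It was 0.609 in the window with the highest level, against a median of 0.178 in each complex. A change of a given size thus passed less easily in an enriched window. The window from 12676001, with a change of -0.65 and an SE of 0.255, did not pass (limma, adjusted p = 0.468). At an unadjusted p under 0.05, 5 windows of the complexes were higher and 6 lower, or 1.49% and 1.79%, against 3.74% and 2.08% of all windows.

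The window that passed ran from 2794001 to 2796000 on 3R, in the upper part of the Antennapedia complex. Its level was -0.49 and 0.22 in mutant samples and -0.74 and -0.83 in wild type samples, so the genotypes did not overlap but the replicates of the mutant stood 0.71 apart. The change was 0.65 (SE 0.174, adjusted p = 0.040), made up of 0.25 within replicate 1 and 1.05 within replicate 2. Without mutant replicate 2 it was 0.29 (adjusted p = 1.00), and with medians over the 7 probes in place of means it was 0.16 (adjusted p = 1). It passed in 4 of 14 alternative fits. Among these were the fits with at least 5 probes and with the filter on dim input, which left its 7 probes and its change as they were. Without wild type replicate 1 the change was 0.69 and without wild type replicate 2 it was 0.60, with adjusted p of 0.27 and 0.24.

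Each replicate had a scan day of its own that mutant and wild type arrays shared, and the difference between replicates was alike in the genotypes, so the fit was also made with the replicate as a block (median SE of the change 0.145 in both complexes). It passed far more windows: 5.4% of all windows as higher and 3.73% as lower in the mutant. The complexes stood below this background, with 3 windows (0.893%) higher and 6 (1.79%) lower. By complex, 2 windows were higher and 4 lower in the Antennapedia complex, and 1 was higher and 2 lower in the bithorax complex. In the flanks 28 of 592 windows were higher and 12 lower. With the block the SE was smaller at high levels, at 0.056 in the window with the highest level. A change of a given size thus passed more easily in an enriched window. Windows at 1 or more in all 4 samples made up 3.87% of the complexes and 24.9% of all windows. The shares that passed were therefore not compared at a like level.

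The 3 windows that passed as higher with the block all lay below 0 in wild type. They were that from 2794001, already described (adjusted p = 0.000297), that from 2700001 to 2702000 and that from 12528001 to 12530000. The window from 2700001 was at -0.84 and 0.12 in mutant samples and -1.42 and -0.20 in wild type samples, a change of 0.45 (adjusted p = 0.0303). Within the replicates its change was 0.58 and 0.32. The 2 replicates of this window differed by more than the genotypes did. In fits without a block the change was -0.03 without mutant replicate 2, -0.16 without wild type replicate 1 and 1.06 without wild type replicate 2. Leaving out a sample breaks the pairing, so those values also hold the difference between replicates. The window from 12528001 was at -0.30 and -0.08 in mutant samples and -0.93 and -0.29 in wild type samples, a change of 0.42 (adjusted p = 0.0433) that was -0.07 with normexp, and in 1 sample only 50.0% of its 6 probes had an IP signal well above background.

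Of the 6 windows that passed as lower with the block, 5 had a level of at least 0.5 over the 4 samples. The window from 2640001 to 2642000 had 0.28 and 0.57 in mutant samples and 1.01 and 1.11 in wild type samples. Its change of -0.64 (adjusted p = 0.000403 with the block and 0.365 without) was the largest decrease in the Antennapedia complex in the main processing. The adjacent windows from 2618001 and 2620001 formed a second site. The window from 2618001 was at -0.31 and -0.04 in mutant samples and 0.25 and 0.37 in wild type samples (change -0.49, adjusted p = 0.0127 with the block), and that from 2620001 was at 0.56 and 0.94 in mutant samples and 1.20 and 1.29 in wild type samples (change -0.50, adjusted p = 0.0095 with the block). In both of these windows the genotypes did not overlap.

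The fourth window lower in the mutant was the enriched window from 2634001, with a change of -0.20 (adjusted p = 0.0413 with the block). Its replicates differed by 0.60 in mutant and 0.66 in wild type samples, and the change turned to 0.04 when the arrays were scaled to a common spread. In the bithorax complex the window from 12676001 to 12678000 had the largest decrease of either complex in the main processing, -0.65, with levels of 0.78 and 0.76 in mutant samples against 1.36 and 1.49 in wild type samples (adjusted p = 0.000179 with the block and 0.468 without). Its neighbour from 12678001 was at 0.25 and 0.65 in mutant samples and 0.86 and 0.92 in wild type samples, a change of -0.44 (adjusted p = 0.0297 with the block). In these decreased windows the mean of both replicates was lower in the mutant by 0.28 to 0.79 for log2 IP, and moved by at most 0.23 for log2 input. The window from 2618001 had the largest input change, and in its replicate 2 the input was higher by 0.29 in the mutant and the IP lower by only 0.15.

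**Figure D4:**
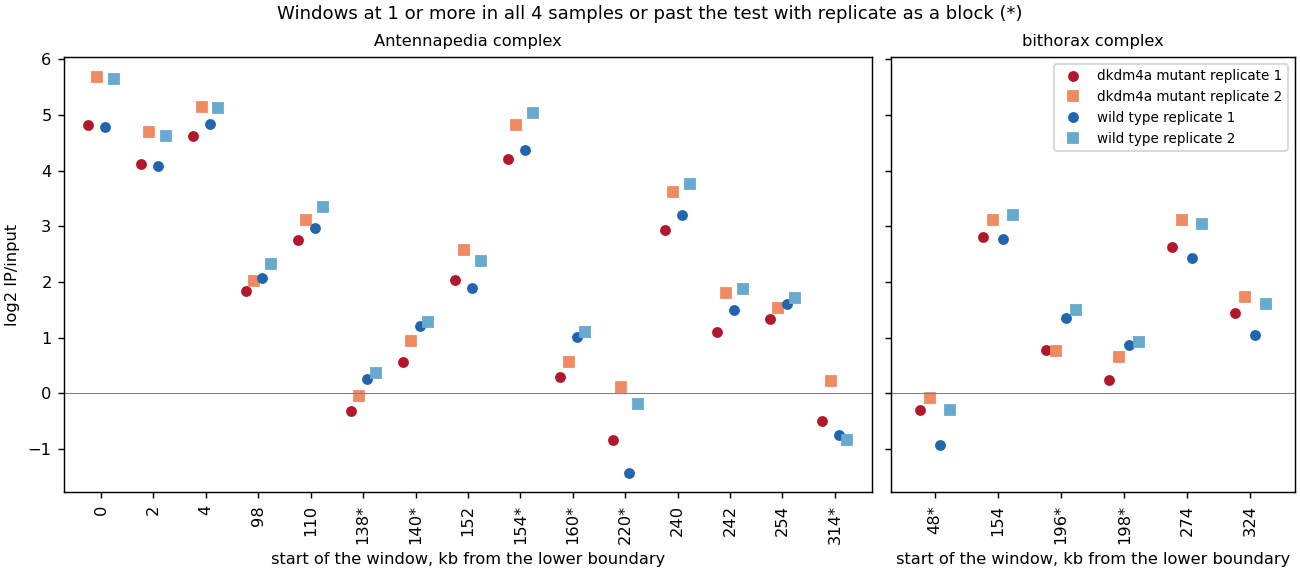
Log2 IP/input in each of the 4 samples for the windows of both complexes that reached 1 in all samples or passed the test with the replicate as a block (asterisk), ordered by the distance of their start in kb from the lower boundary of the complex. In the windows marked at 140, 160 and 196 kb both mutant samples lie below both wild type samples.

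The direction of several of these changes turned with the background correction. With normexp the windows from 2618001, 2640001 and 12676001 had changes of 0.15, 0.19 and 0.09, that from 2634001 had 0.84, and that from 12528001, higher in the main processing, had -0.07. With loess the changes of the windows from 2640001 and 12676001 kept their sign but were -0.14 and -0.15. The windows with further large changes did not pass in either fit. In the Antennapedia complex these were increases of 0.32 to 0.37 in the windows from 2506001, 2642001 and 2816001 and decreases of -0.34 and -0.30 in those from 2510001 and 2716001. In the bithorax complex they were increases of 0.28 to 0.36 in the windows from 12602001, 12630001, 12638001 and 12646001 and decreases of -0.39, -0.37 and -0.32 in those from 12654001, 12722001 and 12800001. Only 1 window in each complex changed by at least 0.5 in the same direction in both replicates, that from 2640001 and that from 12676001.

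Windows above and below the array median were counted by the direction of their change. Among the 23 windows of the Antennapedia complex with a level of at least 0.5, 11 were lower in the mutant in both replicates and 4 higher, with a median change of -0.14. Among the 13 such windows of the bithorax complex 6 were lower and 4 higher, with a median change of -0.07. These shares of 47.8% and 46.2% lower compare with 39.6% and 39.1% in the flanks, and with 37.9% over all windows of the genome at that level, of which 34.4% were higher and whose median change was -0.01. Of the windows below 0, by contrast, 47 of 132 in the Antennapedia complex and 38 of 131 in the bithorax complex were higher in the mutant in both replicates (35.6% and 29.0%) and 23 and 17 lower (17.4% and 13.0%). Over all such windows of the genome 33.1% were higher and 21.4% lower. The median changes were 0.06 and 0.05, against 0.03 over the genome. These counts are a description, since neighbouring windows and the arrays are shared, and the level that divides the windows holds the same 4 samples.

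Of the 13 windows at 1 or more in all samples, 6 in the Antennapedia complex and 0 in the bithorax complex were lower in the mutant in both replicates, and 3 and 2 were higher. The share over all windows was not taken at this cut. At a level of at least 0.5 it was 37.95% lower and 34.43% higher. With so few windows these counts show no difference between the complexes. Window by window, the replicates shared little of the change in the complexes. Pearson's r between the changes of the 2 replicates was 0.23 over the 174 windows of the Antennapedia complex and 0.08 over the 162 windows of the bithorax complex, against 0.56 and 0.39 in their flanks and 0.47 over all windows. By rank the gap was narrower. Spearman's rho was 0.16 and 0.04 in the complexes, 0.30 and 0.29 in their flanks and 0.34 over all windows. The flanks of the Antennapedia complex held changes of up to 2.15, against 0.65 in the complex. Their log2 input also differed more between genotypes, by up to 1.29 in a window, against 0.32 in the complex. The part that input has in the changes of the flanks was not tested.

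**Figure D5:**
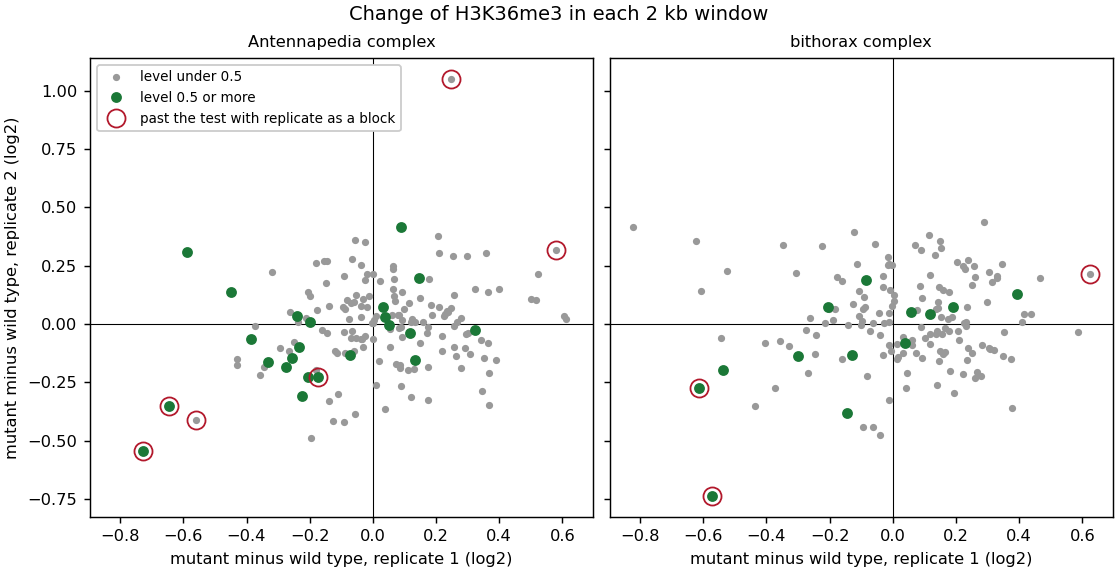
Mutant minus wild type of log2 IP/input in each 2 kb window, in replicate 1 (horizontal) against replicate 2 (vertical), for the Antennapedia complex (left) and the bithorax complex (right). Windows with a level of 0.5 or more (green) reach furthest into the lower left, where both replicates are lower in the mutant, and circled windows passed the test with the replicate as a block.

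The study's own procedure for calling peaks on the mt/WT track was then applied to the processed signals, with a moving average over 5 probes and a candidate and a peak threshold of 1 and 2 SD beyond the mean of the probes of that sign. Over the genome 871 peaks of increased H3K36me3 were found in both replicates, and 0 of them lay in either complex, where 3 and 4 lay in the flanks. With the log2 ratios that were deposited as a value table, 1 peak lay in the Antennapedia complex. In single replicates the complexes did hold such peaks: 6 in replicate 1 and 1 in replicate 2 for the Antennapedia complex, and 7 and 5 for the bithorax complex. Over the genome there were 3096 in replicate 1 and 2433 in replicate 2, so most increased peaks of a single replicate were not shared anywhere. The complexes hold 2794 of the 475395 genomic probes. In each replicate they already held fewer of the increased peaks than that share of probes. The same was true of decreased peaks, in each replicate and among those found in both. Replicates 1 and 2 held 5 and 7 decreased peaks in the Antennapedia complex and 11 and 5 in the bithorax complex, of 3228 and 2412 over the genome. Peak counts in the complexes, increased or decreased, are small numbers to set against that share and were not tested.

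Of 734 peaks of decreased H3K36me3 in both replicates, 2 lay in the Antennapedia complex and 1 in the bithorax complex. The first spanned 3892 bp, from 2617652 to 2621543 on 3R, with 16 probes at 0.08 and 0.25 in mutant samples and 0.57 and 0.63 in wild type samples. The second spanned 1157 bp, from 2640432 to 2641588, with 5 probes at 0.26 and 0.59 in mutant samples and 1.09 and 1.15 in wild type samples. The third, in the bithorax complex, spanned 3134 bp from 12676404 to 12679537, with 15 probes at 0.66 and 0.81 in mutant samples and 1.31 and 1.38 in wild type samples. All 3 fell on windows that passed as lower with the replicate as a block, which is no separate evidence, since both rest on the same probes. With normexp, or with thresholds taken before smoothing, 0 of them were called.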

How the data were processed

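H3K36me3 ChIP-chip was measured in 4 samples, 2 replicates of dkdm4a mutant and 2 of wild type embryos, each hybridised to 2 Agilent array designs (8 arrays). The authors amplified IP and input DNA by ligation-mediated PCR, and no dyes were swapped, so a dye effect cannot be told apart from enrichment in a level, though it is shared in mt/WT. The deposited scanner files hold the processed intensity of each channel from Feature Extraction 10.5.1.1 (background-subtracted, detrended, linearly dye-normalised). The deposited value table holds log2 ratios, found by comparison with the scanner files to be background-subtracted IP over input plus a constant per array; limma is named in the submitters' processing notes. The median background-subtracted signal of the arrays holding the complexes was 95.3 to 130.5 for IP and 700.6 to 988.7 for input, and the number of arrays limits the precision.

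From the processed signals, log2 IP/input was centred on the array median, outlier spots were left out, and probes were averaged over 2 kb windows of at least 3 probes. Windows were fitted with limma 3.58.1 (R 4.3.3, lmFit and eBayes with trend) over the whole genome, and other values with Python 3.11.15. The scripts were tested on simulated data. For the window fit these had no replicate effect and changes larger than any in the complexes, so they do not cover changes of that size. No sample was dropped or imputed. For some dim probes the scanner software had put a substitute (surrogate) value in place of the signal of a channel, and these were kept. In the Antennapedia complex they numbered 17 to 22 per sample in replicate 1 and 76 to 79 in replicate 2. In the bithorax complex they numbered 31 to 32 and 80 to 89. File headers show 1 scan day per replicate, shared by both genotypes, and the replicate differences of the genotypes correlated across windows (Pearson's r 0.65 over 57266 windows and 0.44 over the 336 of the complexes), so the fit with the replicate as a block is given beside the main fit. The methods state no linear model, and their peak calls compare the genotypes within each replicate. With 2 replicates p-values rest on few samples. Peaks followed the methods, but the last filter of the methods on the mutant data was not applied, and gaps of over 1000 bp and runs under 3 probes ended a peak. Named windows were, per complex, the 5 highest and 3 lowest by level, the 5 largest changes each way, every window past the threshold, runs of at least 3 enriched windows and the longest run below 0. The members, windows and lists were chosen with earlier results of these data known. Alternatives were normexp (offset 50), loess (span 0.3), no centring, scaling by the median absolute deviation, the deposited log2 ratios, a filter on dim input, medians, other window sizes, starts and probe minimums, 150 kb flanks, no variance trend and leaving out each sample. Unmapped columns numbered 0. Probe sequences and a genome of the arrays' build were not used here.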

Additional observations from a re-analysis of the deposited data

How the results depend on the processing

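Complex minus flanks kept its sign in every alternative run (from -1.08 to -0.27 for the Antennapedia complex and from -1.20 to -0.27 for the bithorax complex; -1.02 to -0.97 and -0.97 to -0.94 with each sample left out). The small mt/WT changes did not. Leaving out each sample gave -0.0445 to 0.0702 for the Antennapedia complex, -0.0844 to 0.0530 relative to its flanks, -0.0334 to 0.0812 for the bithorax complex and -0.0683 to 0.0196 relative to its flanks. Leaving out a sample breaks the pairing by replicate, so these values also hold the difference between replicates. Within the replicates the changes were 0.0291 and -0.0035 for the Antennapedia complex and 0.0354 and 0.0124 for the bithorax complex. Relative to the flanks they were -0.0029 and -0.0286, and -0.0090 and -0.0397. The Antennapedia complex relative to its flanks changed by 0.00297 with loess and 0.0300 with medians, the bithorax complex by -0.00108 with the deposited log2 ratios and, relative to its flanks, by 0.00106 with medians. For pairing by replicate, the block raised the windows passed in the Antennapedia complex to 2 higher and 4 lower, and in the bithorax complex to 1 higher and 2 lower. The 1 higher window of the Antennapedia complex became 0 with normexp, loess, no centring, scaling by the median absolute deviation, the deposited ratios, medians, no variance trend, windows of 1 or 4 kb and starts moved by 1 kb, and 0 to 2 with samples left out. Decreased peaks numbered 0 in the Antennapedia complex with thresholds before smoothing, normexp or loess and 1 with the deposited ratios. In the bithorax complex they numbered 0 with thresholds before smoothing or normexp and 2 with loess, scaling or the deposited ratios. The deposited ratios gave 1 increased peak in the Antennapedia complex. Among named windows, normexp turned the change from 2618001 to 0.147, 2634001 to 0.843, 2640001 to 0.187, 12676001 to 0.0852, 12800001 to 0.0504, 2642001 to -0.0653, 12528001 to -0.0675, 12602001 to -0.0205, 12630001 to -0.123 and 12638001 to -0.0654. Scaling turned that from 2634001 to 0.0354. With samples left out, and so with the pairing broken, the change ranged from -0.531 to 0.130 in the window from 2634001 and from -0.164 to 1.06 in that from 2700001. Within the replicates it was -0.17 and -0.23 in the window from 2634001 and 0.58 and 0.32 in that from 2700001. The cause was not tested. Dim IP signal limits the windows below 0, where fewer probes stand above background in replicate 2.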
